A study of Mus musculus with 12 samples.

Results

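Metalloproteinases that cut matrix and cell-surface proteins, and the proteins that hold them in check, were followed through mouse skin epithelium. The set holds the ADAM, ADAMTS and MMP proteases with a number in their name, the 4 TIMP inhibitors, the iRhom genes Rhbdf1 and Rhbdf2, and Reck. Members were chosen by gene symbol, which gave 81 of the 25965 genes in the files: 32 ADAM, 23 MMP and 19 ADAMTS genes, 4 TIMPs, 2 iRhoms and Reck. All 81 were found in the GENCODE annotation of the mouse genome build mm10, where Mmp1a is listed as a polymorphic pseudogene.

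ADAM proteases sit in the cell membrane and release the outer part of other membrane proteins, a step called shedding. ADAM17 and ADAM10 shed the membrane-anchored ligands of the epidermal growth factor receptor (EGFR), which links the family to the receptor deleted in this study. MMPs and ADAMTS proteases cut collagens, proteoglycans and other matrix proteins, the iRhoms carry ADAM17 to the cell surface, and TIMPs and RECK inhibit the proteases.

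The series asks about EGFR in hair shaft differentiation and holds 12 RNA-seq libraries of skin cells in 3 compartments, each with 2 control and 2 knockout libraries. ORS cells are outer root sheath cells and HFSC are hair follicle stem cells. The label of the IFE cells spells out inner root sheath, while IFE usually stands for interfollicular epidermis, so only the short form is used here. The libraries were built with the SMARTer Ultra kit, made for small amounts of RNA, after PicoPure isolation.

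All controls carried the genotype EGFR_fl_fl, a floxed Egfr allele without deletion. IFE and ORS knockouts carried EGFR_delta_ep, and HFSC knockouts carried EGFR_delta_LGR5, so the deletion that the knockout libraries carry is another one in HFSC. The IFE libraries were control E341 and E360 and knockout E358 and E359, and the ORS libraries were control E341 and E344 and knockout E358 and E359. The HFSC libraries were control L94 and L136 and knockout L95 and L97. No age or driver line is given in the labels. No label says that the libraries of a group came from separate animals, so p-values speak only of the scatter among these samples, and that scatter may be technical.

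Each library had 11.4 to 27.7 M reads in genes, and CPM below means counts per 1000000 such reads after TMM scaling. Egfr stood at 0.118% of the control mean in IFE knockouts, 11.2% in ORS knockouts and 81.1% in HFSC knockouts, so the HFSC libraries labelled knockout kept most of the transcript. By Xist and Ddx3y reads 7 libraries were female and 5 male. The male ones were the IFE controls, the HFSC knockouts and ORS control E341, so in IFE and in HFSC the genotype cannot be told apart from sex. IFE titles carry the tag FC7 and ORS titles FC8, and the HFSC libraries have another title letter and another deletion, so tag or series cannot be told apart from compartment. Suprabasal keratins marked IFE (Krt10 at 649 to 1404 CPM), while the 4 inner root sheath keratins summed to 2.16 to 6.82 CPM there, with Krt25 and Krt28 at 0, Krt27 read in 3 libraries (2.16 to 3.66 CPM) and Krt71 in 1 (6.82 CPM). Of 5 bulge stem cell markers, Cd34 and Krt15 were called higher in HFSC than in ORS, while Lgr5, Lhx2 and Sox9 were not called between them, and all 5 were called higher in HFSC than in IFE (limma). The leukocyte gene Ptprc had 0 reads in all 12 libraries, and the 5 endothelial markers summed to at most 6.34 CPM. These are pooled cells, so fewer cells of a type and less RNA per cell cannot be told apart.

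The promoters of 6 members are printed to show the letters upstream of a nearly unread MMP cluster beside those of 3 abundant members, chosen after the levels were seen. The windows are 150 bases that end at the gene start or shortly before it, from RefSeq on build GRCm38.p6, given 5′ to 3′ on the gene's strand. Capitals mark the AP-1 letters TGANTCA in the first 3 and the GC box letters GGGCGG, on either strand, in the last 3. Mmp13, the mouse collagenase 3 gene (chr9:7272364-7272513, plus strand), Mmp3, stromelysin 1 (chr9:7445672-7445821, plus), and Mmp10, stromelysin 2 (chr9:7502192-7502341, plus), lie in 1 cluster. Adamts9 (chr6:92943535-92943684, minus) and Adamts14 (chr10:61273439-61273588, minus) had their highest levels in IFE, and Adam10 (chr9:70678832-70678981, plus) was high in every library.

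Mmp13: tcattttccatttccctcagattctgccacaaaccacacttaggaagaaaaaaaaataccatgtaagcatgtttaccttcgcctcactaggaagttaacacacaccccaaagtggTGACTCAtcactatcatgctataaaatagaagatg

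Mmp3: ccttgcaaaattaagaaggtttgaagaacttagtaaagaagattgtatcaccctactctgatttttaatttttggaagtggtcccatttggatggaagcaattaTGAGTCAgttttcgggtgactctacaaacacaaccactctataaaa

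Mmp10: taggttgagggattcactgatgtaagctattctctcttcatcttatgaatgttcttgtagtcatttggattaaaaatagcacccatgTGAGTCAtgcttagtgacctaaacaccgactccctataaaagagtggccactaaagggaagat

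Adamts9: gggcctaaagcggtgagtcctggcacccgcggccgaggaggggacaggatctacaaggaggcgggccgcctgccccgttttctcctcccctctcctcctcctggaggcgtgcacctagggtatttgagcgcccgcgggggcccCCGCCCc

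Adamts14: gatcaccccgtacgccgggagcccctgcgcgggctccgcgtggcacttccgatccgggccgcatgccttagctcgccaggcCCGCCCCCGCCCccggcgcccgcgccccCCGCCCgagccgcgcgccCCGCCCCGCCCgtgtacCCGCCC

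Adam10: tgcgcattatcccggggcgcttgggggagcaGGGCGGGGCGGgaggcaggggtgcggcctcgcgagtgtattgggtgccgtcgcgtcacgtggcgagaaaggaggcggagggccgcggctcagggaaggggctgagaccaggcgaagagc

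The GC content of these windows was 38.7%, 35.3% and 39.3% for Mmp13, Mmp3 and Mmp10, against 71.3% for Adamts9, 83.3% for Adamts14 and 72% for Adam10. The 3 MMP windows each also hold TATAAA, the TATA box letters. RefSeq promoters were matched for 49 of the 81 members. Over the 250 bases upstream of any listed start, 11 of the 49 (22.45%) held TGANTCA against 7.82% of 27025 genes. Of these 11, 8 lie in the chromosome 9 cluster described next. Outside it 3 of 39 (7.69%) held TGANTCA, namely Adam19, Adam25 and Adam29. Of the 49, 12 (24.49%, 7 of them in the cluster) held TATAAA against 14.33%, and 21 (42.86%) held GGGCGG against 35.36%. The E box letters CANNTG were in 69.39% of member promoters and 69.3% of all. TGANTCA reads the same on both strands, so a match counts once, and these are matches of letters, not measured binding.

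The 10 MMP genes that lie side by side on chromosome 9 (chr9:7272514 to 7699585, mm10) were nearly without reads. They hold the collagenases, stromelysins, matrilysin, macrophage elastase and enamelysin, enzymes best known from wounds, inflammation and teeth. Mmp13, Mmp12, Mmp1b, Mmp1a, Mmp10, Mmp20 and Mmp7 had 0 reads in all 12 libraries, and the 10 genes together had 160 reads of the 212526363 counted. A count of 0 allows at most 0.107 to 0.268 CPM per library (3 reads), for counting error only. Of the 160 reads, 145 were Mmp3 reads of IFE control E341 (12.2 CPM), 13 were Mmp8 reads and 2 were Mmp27 reads, named here after their values were seen. AP-1 letters stood upstream of at least 1 listed start in 8 of the 10 genes and TATA box letters in 7, while a GC box stood upstream of none. For Mmp12 the AP-1 letters lay only upstream of a start 2993 bases inside the gene. Mmp8 and Mmp27 were the 2 without AP-1 letters.

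**Figure D1:**
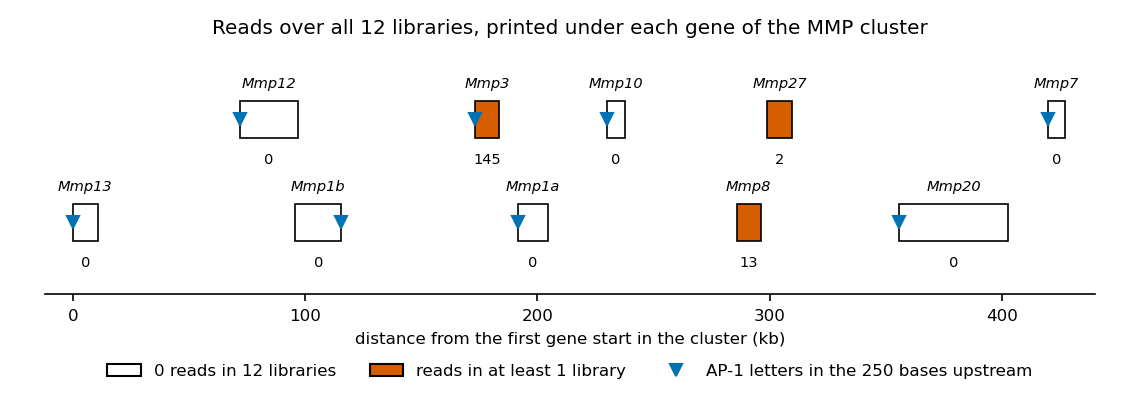
The 10 genes of the chromosome 9 MMP cluster by distance from the first gene start (kb), each drawn to scale as a box with its reads over all 12 libraries printed beneath. Filled boxes had reads. Triangles, drawn at the gene start, mark AP-1 letters in the 250 bases upstream of any listed start, which for Mmp12 lies 2993 bases inside the gene. Reads were found for Mmp3 (145), Mmp8 (13) and Mmp27 (2).

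Detection across the families was uneven. Over all members 24 of 81 (29.6%) had 0 reads in every library, close to the 29.9% of all 25965 genes, and 16 (19.8%) had reads in all 12 libraries against 41.4% of all genes. Among ADAM genes 15 of 32 had no read, which includes Adam18, Adam24, Adam26a, Adam26b, Adam29, Adam30 and Adam39. The other 8 ADAM genes without a read were Adam5, Adam6a, Adam6b, Adam7, Adam12, Adam25, Adam28 and Adam33. Among MMPs 8 of 23 had none (Mmp16 beside the 7 of the cluster), and among ADAMTS genes only Adamts16 had none. Members with near-identical copies (Adam1a with Adam1b, Adam6a with Adam6b, Adam26a with Adam26b, Mmp1a with Mmp1b) could share or lose reads in counting, so their separate values are uncertain.

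**Figure D2:**
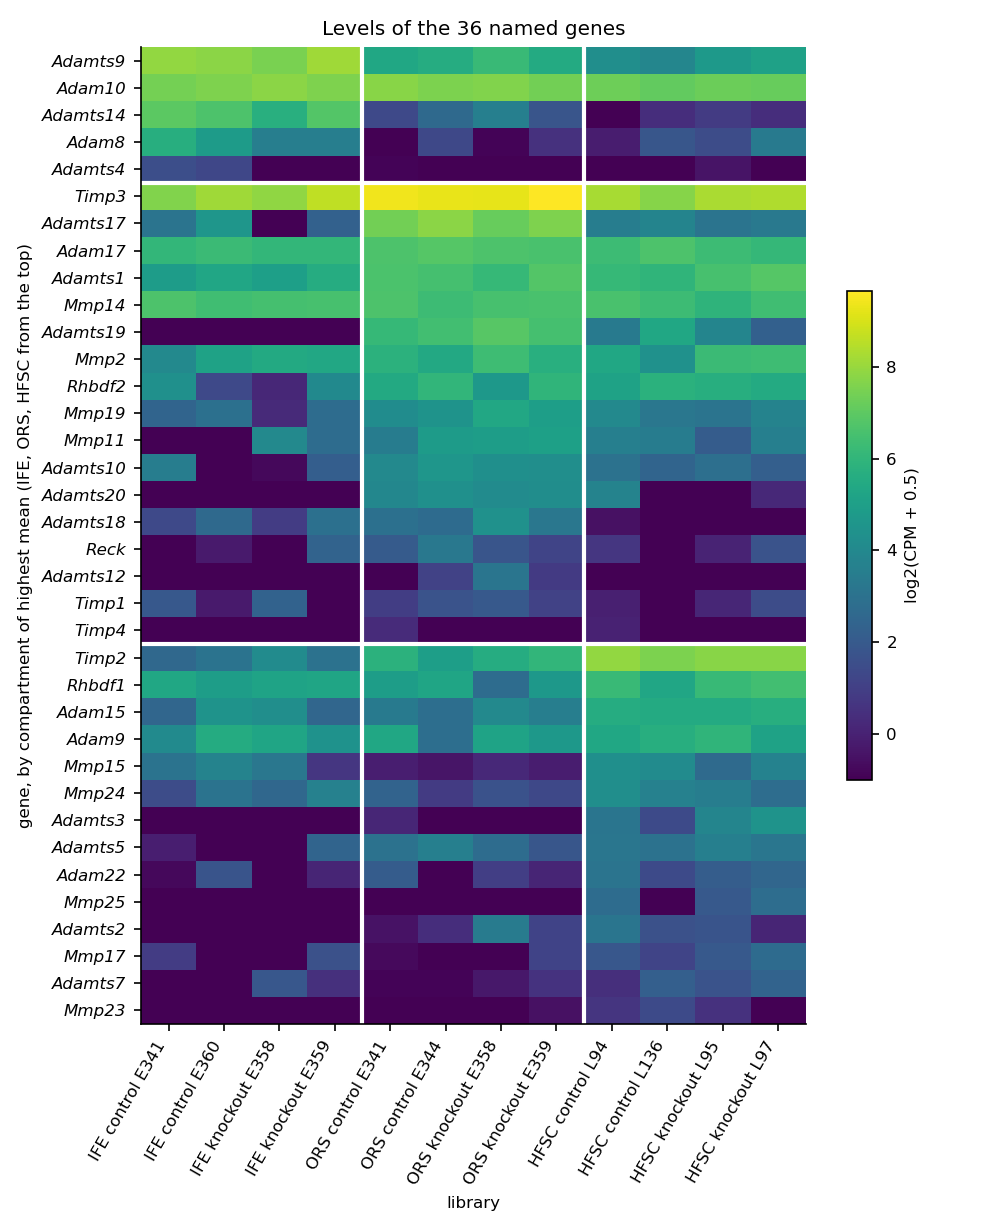
Level of the 36 named genes (rows) in each of the 12 libraries (columns) as log2(CPM + 0.5), with white lines between compartments and between groups of genes with the highest mean in IFE, ORS and HFSC from the top. The highest library was 1.67 times the lowest for Adam10, 1.72 times for Adam17 and 1.70 times for Mmp14. Adam10 was lowest in the HFSC libraries, and Adamts19 and Adamts20 were at 0 in all 4 IFE libraries.

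The shedding machinery of EGFR ligands was present in every library. Adam10 (ENSMUSG00000054693.14, chr9:70678997-70780229, plus strand), the main sheddase of betacellulin, EGF and Notch, was read at 170.5 and 189 CPM in IFE controls and 224 and 194 in IFE knockouts. It was at 218 and 188 in ORS controls, 195 and 167 in ORS knockouts, 156 and 134 in HFSC controls, and 152 and 145 in HFSC knockouts. IFE and ORS libraries overlapped, and all 4 HFSC libraries lay below them. The mean was 195 ± 22.2 CPM in IFE, 192 ± 21.2 in ORS and 147 ± 9.36 in HFSC (SD, n = 4 each), and HFSC was called below IFE by limma (log2 difference -0.40 ± 0.14 SE, adjusted p = 0.0425). That call was lost under 9 of 18 alternatives, among them without IFE control E341 or E360, IFE knockout E358, HFSC control L136, or HFSC knockout L95 or L97 (adjusted p 0.036 to 0.253 over the 18).

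Adam17 (ENSMUSG00000052593.16, chr12:21323509-21373632, minus), the sheddase of TGF-alpha, amphiregulin and TNF, stood at 66.2 and 76.6 CPM in IFE controls and 65.9 and 65.7 in IFE knockouts. ORS libraries held 102 and 113 CPM in controls and 102 and 95.1 in knockouts, and HFSC libraries 77.9 and 101 in controls and 78.6 and 67.9 in knockouts. ORS values lay above all IFE values and overlapped with HFSC, and no compartment comparison was called (ORS against IFE log2 difference 0.58 ± 0.20, limma adjusted p = 0.0712). Adam17 shares 311 bases of exon with Iah1 on the other strand, whose level was 64.0 to 130 CPM in IFE and ORS and 20.5 to 39.6 in HFSC. Whether the counting used strand is not given in the sources used here.

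Of the iRhoms, which ADAM17 needs to mature, Rhbdf2 had the same order of means as Adam17 (ORS, HFSC, IFE). Rhbdf1 had another order (HFSC, IFE, ORS). Rhbdf2 (iRhom2) was at 19.6 and 2.05 CPM in IFE controls, 0.634 and 16.0 in IFE knockouts, 44.0 and 64.1 in ORS controls and 25.3 and 61.2 in ORS knockouts. In HFSC it was at 34.5, 55.8, 50.7 and 45.3 CPM (L94, L136, L95, L97). All ORS and HFSC libraries lay above all IFE libraries, whose own spread was wide. HFSC exceeded IFE by 3.06 ± 0.79 on the log2 scale (limma adjusted p = 0.00982, and 0.0618 with control libraries only) and ORS exceeded IFE by 3.06 ± 0.87 (adjusted p = 0.0392). The ORS call was lost on leaving out 6 of the 8 libraries fitted (all but IFE control E341 and IFE knockout E359).

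Rhbdf1 (iRhom1) was at 30.1 to 40.4 CPM in the 4 IFE libraries, 30.3 and 37.9 in ORS controls, 6.36 and 25.1 in ORS knockouts, 74.1 and 38.8 in HFSC controls, and 70.9 and 85.2 in HFSC knockouts. HFSC lay above every ORS library and was called (log2 difference 1.61 ± 0.39, limma adjusted p = 0.00831). That call was lost on the deposited scale and with control libraries only, where the difference was 0.65 in both. Per kb of exon, which allows genes to be compared, the 2 iRhoms summed to a median of 8.36 CPM per kb in IFE, 15.04 in ORS and 21.4 in HFSC.

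The EGFR ligands that these sheddases release were low beside them. The 7 ligands together summed to 1.43 to 33.1 CPM in IFE, 3.96 to 18.03 CPM in ORS and 18.3 to 48.8 in HFSC. Tgfa was at most 0.307 CPM in IFE and ORS and at 3.42, 8.94, 26.1 and 15.7 CPM in HFSC (L94, L136, L95, L97), above both compartments (log2 differences 4.38 and 4.17, limma adjusted p = 4.72e-05 and 0.000103). Areg was also called higher in HFSC at up to 2.27 CPM, Epgn was called lower in ORS and HFSC than in IFE, and Ereg had 0 reads everywhere. Tgfa and Areg passed the filter on low reads only through HFSC, so they had to differ, and their calls are no support. In the IFE and ORS fit Epgn passed it only through IFE, so its call of ORS below IFE is no support either.

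Among the 12 sheddase partners listed (tetraspanins of ADAM10, FRMD8, proprotein convertases and Rhbdl2), 2 of 9 tested were higher in ORS than in IFE and none lower, where 8.53% of all genes were higher and 7.25% lower. In HFSC against IFE 6 of 10 were higher and 1 lower, where 19.9% of all genes were higher and 16.1% lower. The convertase Pcsk6 was at 53.5 to 84.8 CPM in ORS and at most 1.28 in IFE (log2 difference 6.49, limma adjusted p = 6.84e-05). Furin, the convertase that removes the prodomain of many ADAMs and membrane-type MMPs, was at 40.7 to 79.3 CPM in all libraries. Tspan15, which directs ADAM10 to cadherins, was at 2.12 to 4.08 CPM in HFSC and at most 0.566 elsewhere (log2 difference to IFE 2.67, adjusted p = 0.000925). Tspan15 passed the filter on low reads only through HFSC, and Pcsk6 that of the IFE and ORS fit only through ORS. Both had to differ, so these calls are no support.

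Other ADAM proteases split by compartment. Adam8, a sheddase of leukocytes and other cells, was at 50.1 and 27.9 CPM in IFE controls and 11.3 and 11.3 in IFE knockouts, at most 1.96 in ORS and 0.395 to 9.67 in HFSC. All IFE libraries lay above all others, with a log2 difference of -4.42 ± 0.72 for ORS against IFE (limma adjusted p = 0.00241). The 7 leukocyte markers summed to 11.6 to 28.2 CPM in IFE, 11.4 to 14.8 CPM in ORS and 29.9 to 61.3 in HFSC, mostly Csf1r and Cd74, with Ptprc at 0. Their part in the result was not tested. Adam15, a membrane disintegrin, was at 44.7 to 50.6 CPM in HFSC against 5.19 to 21.5 in IFE and 6.76 to 15.8 in ORS, higher than in both (log2 differences 2.14 and 2.12, adjusted p = 0.00543 and 0.00702). The call against IFE was lost with control libraries only (limma adjusted p = 0.0578) and that against ORS on the deposited scale (0.0837). Adam22, a membrane ADAM without protease activity, averaged 4.85 ± 2.54 CPM in HFSC (SD, n = 4) and was called above IFE at adjusted p = 0.0457, a call lost under 10 of 18 alternatives (leaving out IFE control E341, IFE knockout E358, HFSC control L94, HFSC knockout L95 or L97 among them). Adam9 was at 6.61 to 61.5 CPM with overlapping compartments and no call.

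Membrane-type MMPs, which act at the cell surface, showed 1 even gene and several with their highest mean in HFSC. For Mmp15, Mmp17 and Mmp24 HFSC was not called above IFE (limma adjusted p = 0.226, 0.077 and 0.269). Mmp14, the main activator of pro-MMP2, was at 60.4 to 102 CPM in all 12 libraries, with means of 91.9 ± 7.51 in IFE, 92.4 ± 10.3 in ORS and 79.0 ± 14.6 in HFSC (SD, n = 4 each). The 95% interval of its fold difference was 0.738 to 1.37 for ORS against IFE and 0.638 to 1.13 for HFSC against ORS. Mmp15 was at 1.12 to 12.9 CPM in IFE, 0.269 to 0.669 CPM in ORS and 5.89 to 19.1 in HFSC. ORS stood below both without overlap (log2 difference of HFSC against ORS 3.80 ± 0.62, limma adjusted p = 0.000695, and of ORS against IFE -2.78 ± 0.73, adjusted p = 0.0277). The ORS against IFE call of Mmp15 was lost on leaving out any library but IFE knockout E359. In the IFE and ORS fit Mmp15 passed the filter on low reads only through IFE. It had to differ there, so that call is no support. HFSC and IFE libraries overlapped for Mmp15 and were not called apart (limma adjusted p = 0.226).

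Mmp25, a GPI-anchored MMP known from neutrophils, had 0 reads in all IFE and ORS libraries and was at 6.25 and 0 CPM in HFSC controls and 3.44 and 6.43 in HFSC knockouts. Against a group without a read, folds are lower bounds that put the highest 3-read level of its libraries in place of 0. The HFSC mean of 4.03 ± 3.02 CPM was at least 34.9-fold higher than in ORS and at least 15.04-fold higher than in IFE, with HFSC control L136 at 0. Mmp25 passed the filter on low reads only through HFSC, so it had to differ, and its place among the called genes is no support. Leukocyte marker sums were also highest in HFSC, as given above. Mmp17, Mmp23 and Mmp24 were each called higher in HFSC in 1 comparison, at means of 3.61, 1.02 and 12.2 CPM there, and each call was lost on leaving out single libraries. For Mmp17 these were all of ORS and HFSC but ORS knockout E359, and for Mmp23 all of IFE with HFSC control L136 and HFSC knockout L95. For Mmp24, which shares 637 bases of exon with BC029722, they were ORS control E344, ORS knockout E359, HFSC control L94 and HFSC knockout L95. Mmp23, like Mmp25, passed the filter only through HFSC, so its call is no support.

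Secreted MMPs were few. Mmp2, gelatinase A, was at 15.6 and 34.5 CPM in IFE controls, 43.4 and 41.5 in IFE knockouts, 42.4 to 79.6 in ORS, 39.7 and 20.3 in HFSC controls and 77.0 and 80.3 in HFSC knockouts, and no compartment comparison was called. Mmp19 averaged 4.74 ± 2.82 CPM in IFE, 27.6 ± 10.3 in ORS and 11.4 ± 3.66 in HFSC, higher in ORS than in IFE (log2 difference 2.64 ± 0.60, limma adjusted p = 0.0143). That call was lost without any 1 of the 4 ORS libraries. Tmem198b, with 789 bases of exon shared on the other strand, moved with it, at 1.19 to 13.7 CPM in IFE, 20.1 to 59.7 CPM in ORS and 13.4 to 27.8 in HFSC. Mmp11, stromelysin 3, was at 10.7 to 33.0 CPM in ORS and 3.80 to 11.5 in HFSC, and its IFE values are given with the knockouts below. Mmp9, gelatinase B, had reads in 1 library only (4.96 CPM in HFSC control L136).

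ADAMTS proteases held the largest compartment differences. Adamts9 (ENSMUSG00000030022.14, chr6:92772699-92943492, minus), a protease of versican, was at 245 and 225 CPM in IFE controls and 183 and 280 in IFE knockouts. ORS libraries held 39.7 and 47.2 in controls and 74.3 and 45.4 in knockouts, and HFSC libraries 18.8 and 14.4 in controls and 25.7 and 33.2 in knockouts. The 3 compartments did not overlap, in the order IFE, ORS, HFSC. All 3 steps were called by limma, with log2 differences of -2.19 ± 0.23 for ORS against IFE (adjusted p = 0.00016), -1.17 ± 0.24 for HFSC against ORS (adjusted p = 0.0029) and -3.36 ± 0.24 for HFSC against IFE (adjusted p = 1.27e-06). The antisense gene A730049H05Rik, which shares 1381 bases of exon with it, fell in the same order, at 49.1 to 72.4, 5.09 to 27.5 and 1.78 to 8.11 CPM. Versican itself (Vcan) went another way, at 10.3 to 19.2 CPM in IFE, 30.6 to 85.04 CPM in ORS and 0 to 5.30 in HFSC.

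Adamts14 (ENSMUSG00000059901.12, chr10:61197112-61273438, minus), which removes the amino propeptide of procollagen, was the other gene of IFE. It was at 125 and 101 CPM in IFE controls, 52.1 and 111 in IFE knockouts, 2.06 to 11.6 in ORS and 0 to 1.29 in HFSC. No compartments overlapped, and all 3 differences were called, the largest being HFSC against IFE (log2 difference -6.39 ± 0.58, limma adjusted p = 6.95e-06). The call of HFSC below ORS was lost without ORS control E344, ORS knockout E358 or HFSC control L94. Its fellow procollagen proteinases were not read in IFE. Adamts3 had 0 reads in IFE, 0.605 CPM in 1 ORS library and 8.36, 2.12, 13.9 and 21.8 CPM in HFSC (L94, L136, L95, L97), at least 43.2-fold higher than in IFE (adjusted p = 9.10e-05). Adamts3 passed the filter on low reads only through HFSC, so it had to differ, and its call is no support. Adamts2 had 0 reads in IFE, 0.213 to 10.3 CPM in ORS and 0.562 to 8.36 in HFSC, at least 13.5-fold higher in HFSC than in IFE (adjusted p = 0.00766). So IFE held Adamts14 alone of the 3, while HFSC held Adamts3 and Adamts2 with Adamts14 at 0.724 ± 0.534 CPM. Adamts2 overlapped between ORS (mean 3.26 CPM) and HFSC (mean 3.62 CPM) and was not called between them (limma adjusted p = 0.59). The 7 fibroblast markers summed to 177 to 299 CPM in IFE, 76.0 to 122 CPM in ORS and 30.0 to 83.2 in HFSC, mostly Dcn in IFE (127 to 279 CPM). Col1a2 was at 12.3 to 42.4 CPM in IFE, with Lum in knockout E359 only (9.82 CPM) and Pdgfra in control E360 only (7.32 CPM). Col3a1 and Twist2 were at 0 in IFE and Col1a1 at most 0.336 CPM. The part of such cells in these results was not tested.

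Adamts17 and Adamts19, which are close relatives, had their highest levels in the outer root sheath. Adamts17 (ENSMUSG00000058145.16, chr7:66839735-67152625, plus), linked to fibrillin microfibrils, was at 166 and 221 CPM in ORS controls and 145 and 193 in ORS knockouts. IFE libraries held 8.06 and 23.6 in controls and 0 and 4.47 in knockouts, and HFSC libraries 7.97 to 13.4. All ORS libraries lay far above all others, by 5.24 ± 0.64 on the log2 scale over IFE (limma adjusted p = 0.000401), and HFSC lay 4.07 ± 0.61 below ORS (adjusted p = 0.000358).

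Adamts19 (ENSMUSG00000053441.5, chromosome 18, plus strand) had 0 reads in all 4 IFE libraries. It was at 70.6 and 84.3 CPM in ORS controls, 117 and 89.2 in ORS knockouts, 9.74 and 40.5 in HFSC controls, and 14.05 and 4.37 in HFSC knockouts. The ORS mean of 90.3 ± 19.5 CPM was at least 337-fold higher than in IFE (adjusted p = 1.21e-05), the HFSC mean of 17.2 ± 16.0 at least 64.0-fold higher (adjusted p = 4.23e-05), and HFSC was below ORS (log2 difference -2.77 ± 0.55, adjusted p = 0.00262), a call lost with control libraries only (limma adjusted p = 0.115). In the IFE and ORS fit Adamts19 passed the filter on low reads only through ORS. It had to differ there, so the call of ORS above IFE is no support.

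Further ADAMTS genes had their highest mean in ORS. Adamts20, the relative of Adamts9 whose loss alters coat colour in mice, had 0 reads in IFE and 14.7, 20.0, 17.3 and 18.3 CPM in ORS (controls, then knockouts), at least 65.6-fold higher (limma adjusted p = 0.000322). In HFSC it was at 12.9 CPM in L94 and at most 0.686 in the other 3, below ORS at adjusted p = 0.00694. With control libraries only both calls were lost (limma adjusted p = 0.0566 against IFE and 0.215 for HFSC against ORS). In the IFE and ORS fit Adamts20 passed the filter on low reads only through ORS. It had to differ there, so the call of ORS above IFE is no support. In the fit of all 12 libraries it also passed through HFSC, but only with L94 and L97, the latter at 11 reads. Adamts18 was at 6.07 to 20.5 CPM in ORS, 1.35 to 7.03 in IFE and at most 0.197 in HFSC. HFSC was lower than ORS (log2 difference -4.20 ± 0.62, limma adjusted p = 0.00034) and lower than IFE (-2.82, adjusted p = 0.00388). ORS and IFE overlapped for Adamts18 and were not called apart (limma adjusted p = 0.204). Adamts10, the second ADAMTS linked to microfibrils, averaged 19.2 ± 3.44 CPM in ORS and 3.79 ± 5.17 in IFE, and its call at adjusted p = 0.0489 was lost under 10 alternatives (without any of 6 of the 8 libraries among them, all but IFE control E341 and IFE knockout E359). Adamts12 was read in 3 ORS libraries only, at 1.61, 8.25 and 1.24 CPM, and its call of HFSC below ORS (adjusted p = 0.0283) was lost without ORS control E344, ORS knockout E358 or any HFSC library. Adamts12 too passed the filter only through ORS, so that call is no support.

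The proteoglycanases Adamts1 and Adamts5 were lowest in IFE. Adamts1 was at 29.2 to 47.9 CPM in IFE, 70.5 to 111 CPM in ORS and 61.9 to 112 in HFSC, with both ORS and HFSC above every IFE library. The differences were 1.32 ± 0.27 and 1.17 ± 0.23 on the log2 scale (limma adjusted p = 0.00827 and 0.00187). Adamts5 averaged 1.34 ± 2.41 CPM in IFE and 9.09 ± 1.76 in HFSC (adjusted p = 0.00452). Adamts4 was at most 2.43 CPM anywhere. Adamts7 was called higher in HFSC than in both others at a mean of 3.11 ± 1.71 CPM, and both calls were lost without HFSC control L136 or HFSC knockout L97. The call against ORS was also lost without ORS control E341 or E344 or ORS knockout E358, and that against IFE without IFE control E341 or E360, IFE knockout E359 or HFSC knockout L95. Summed per kb of exon, ADAMTS transcripts came to a median of 47.6 CPM per kb in IFE, 58.9 in ORS and 24.8 in HFSC.

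The inhibitors changed make-up between compartments. Timp3 (ENSMUSG00000020044.13, chr10:86300372-86349506, plus), which binds matrix and inhibits ADAM17 and ADAMTS proteases besides MMPs, was at 197 and 283 CPM in IFE controls and 233 and 394 in IFE knockouts. ORS libraries held 682 and 623 in controls and 615 and 801 in knockouts, and HFSC libraries 301 and 207 in controls and 317 and 337 in knockouts. All ORS libraries lay above all others, while IFE and HFSC overlapped. The ORS mean of 681 ± 85.8 CPM was 2.53-fold that of IFE on the fitted scale (95% interval 1.87 to 3.42, limma adjusted p = 0.00123), and HFSC was 0.422-fold of ORS (0.315 to 0.566, adjusted p = 0.000487). Syn3, in whose intron Timp3 lies on the other strand, shares 1733 bases of exon with it and was read at 114 to 214 CPM in IFE, 237 to 321 CPM in ORS and 74.7 to 153 in HFSC.

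Timp2 (ENSMUSG00000017466.9, chr11:118301069-118355740, minus), which also helps MMP14 to activate pro-MMP2, rose from IFE through ORS to HFSC. It was at 5.54 and 7.77 CPM in IFE controls, 16.9 and 7.59 in IFE knockouts, 56.5 and 30.6 in ORS controls, 47.6 and 64.7 in ORS knockouts, 243 and 189 in HFSC controls, and 218 and 216 in HFSC knockouts. No compartments overlapped. ORS was 5.30-fold of IFE (95% interval 2.803 to 10.03), HFSC 4.46-fold of ORS (2.81 to 7.08) and HFSC 23.6-fold of IFE (14.9 to 37.5), with limma adjusted p = 0.00324, 0.000253 and 8.50e-07.

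Per kb of exon, Timp2 made up a median of 5.11% of TIMP transcripts in IFE (3.87% to 11.4%), 13.8% in ORS (8.96% to 14.5%) and 60.5% in HFSC (55.9% to 65.6%). Timp3 made up 88.1%, 84.0% and 38.8%. HFSC was the 1 compartment in which Timp2 exceeded Timp3 per kb, by 1.34 to 1.90 times in its 4 libraries, against ratios of 0.040 to 0.173 in IFE and ORS. Timp1, on the X chromosome, was at most 4.60 CPM and was not called. Timp4 was at most 0.747 CPM and passed no filter. Reck, a membrane-anchored inhibitor of MMPs and ADAM10, was at 0 to 9.11 CPM and was not called.

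**Figure D3:**
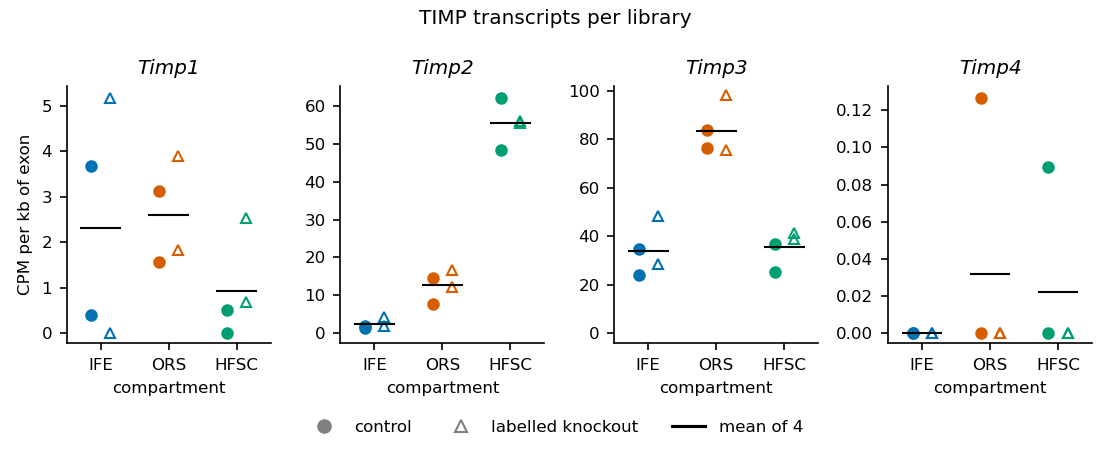
CPM per kb of exon of the 4 TIMP genes by compartment, with filled circles for control and open triangles for libraries labelled knockout, a line at the mean of 4 libraries, and a vertical axis of its own for each gene. Timp2 was highest in all 4 HFSC libraries and Timp3 in all 4 ORS libraries.

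Ranked per kb of exon, the leading genes of the set were Adam10 (39.6 CPM per kb), Timp3 (34.0), Adamts14 (18.7), Adamts9 (15.5) and Mmp14 (15.4) in IFE. In ORS they were Timp3 (83.6), Adam10 (39.1), Adamts17 (23.3), Adamts1 (17.5) and Mmp2 (17.1), and in HFSC Timp2 (55.6), Timp3 (35.7), Adam10 (29.9), Mmp2 (16.1) and Adamts1 (15.9). Within each compartment the ADAM genes summed to a like level, with medians of 67.3, 62.2 and 63.6 CPM per kb in IFE, ORS and HFSC. TIMP genes summed to medians of 37.7, 95.8 and 97.5 CPM per kb, and MMP genes to 33.8, 48.7 and 44.1.

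Counted over the set, 14 of 38 members tested (36.8%) differed between ORS and IFE at an adjusted p under 0.05 (limma), 10 higher and 4 lower, where 15.8% of 14449 genes did (8.53% higher, 7.25% lower). HFSC against ORS called 17 of 43 (39.5%), 9 higher and 8 lower, against 28.7% of 15251 genes (14.3% higher, 14.4% lower). HFSC against IFE called 18 of 43 (41.9%), 13 higher and 5 lower, against 36.1% of genes (19.9% higher, 16.1% lower). The median log2 difference over members tested was 0.56, 0.00 and 0.88 in that order, beside 0.13, 0.03 and 0.18 over all genes tested. Members enter these tests only if they pass a filter on low reads, and one that passed through a single compartment had to differ, so the shares describe the tested members and carry no test. With control libraries only, a choice made after the data were seen, the calls were 11, 7 and 12.

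On the deposited scale, which divides by a library total that held more reads outside genes in IFE and HFSC, the median of all genes was 1.11 higher in ORS than in IFE on the log2 scale. That scaling called 19 members higher and 3 lower in ORS against IFE (86.4% of calls higher), where 93.4% of the calls over all genes were higher. In HFSC against ORS it called 5 members higher and 15 lower (25% higher), where 14.1% of the calls over all genes were higher. In 28 members called in at least 1 comparison, 11 were called in 1, 13 in 2 and 4 in all 3 (Adamts9, Adamts14, Adamts19 and Timp2). Of the 49 calls, none changed direction under any alternative run, and 25 held in every one.

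**Figure D4:**
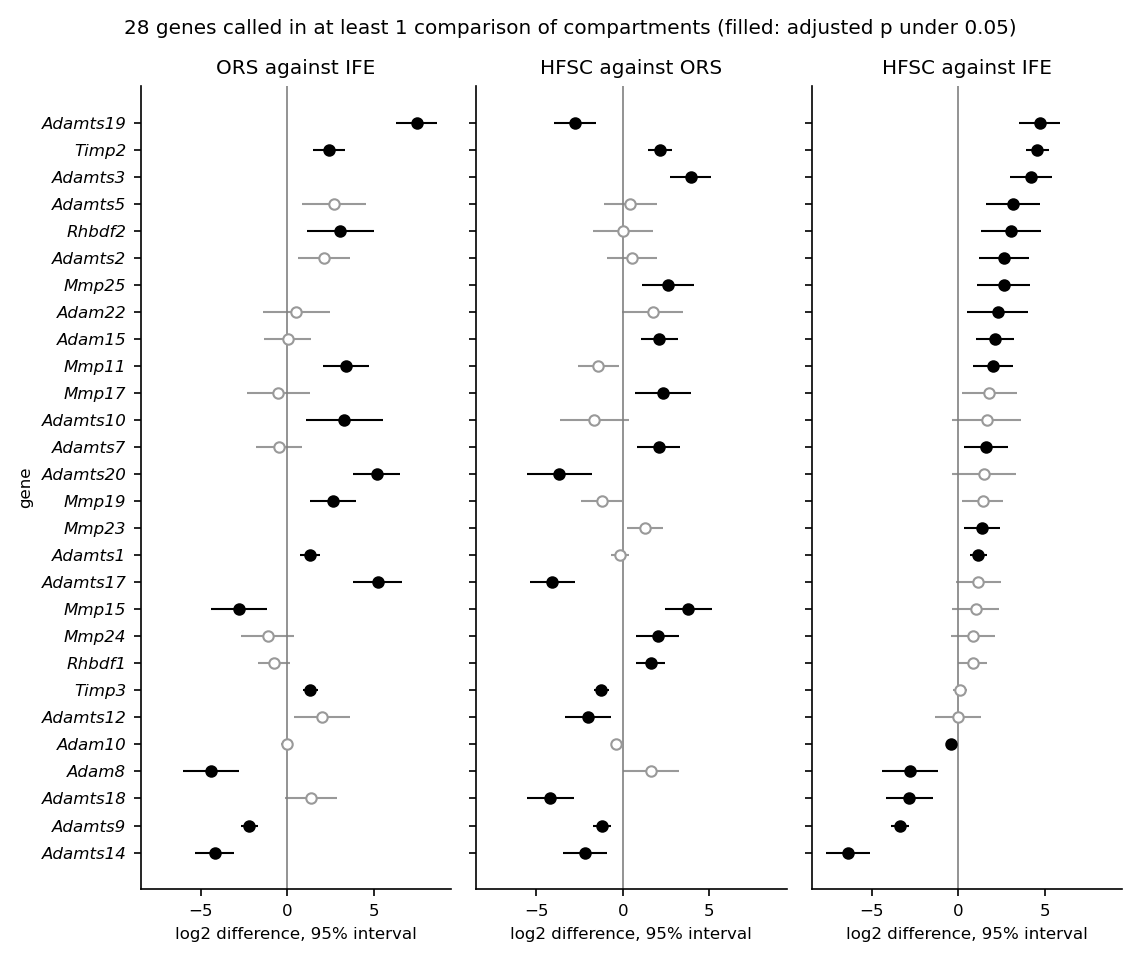
Log2 difference with its 95% interval for the 28 genes called in at least 1 comparison of compartments, with 1 panel per comparison and filled points for an adjusted p under 0.05. In HFSC against IFE (right) Adamts19 and Timp2 lie highest and Adamts14 and Adamts9 lowest.

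The knockout libraries did not differ from controls at this threshold in any member. In IFE 0 of 38 members and 0 of 14449 genes (0%) were called by limma, and 5 members (13.2%) had an unadjusted p under 0.05 against 7.53% of genes. In ORS 0 of 38 members and 0 genes (0%) were called, with 2 members (5.26%) under the unadjusted threshold against 3.4% of genes. Egfr itself was thus not called in IFE or ORS, though it stood at 0.118% and 11.2% of the control mean. A count of 0 in these tests therefore does not show that members were unchanged. In HFSC 0 of 34 members were called and 5 of 13778 genes (0.0363%), with 3 members (8.82%) under the unadjusted threshold against 7.64% of genes. Limma-voom also called 0 members in each, with 4, 1 and 3 under the unadjusted threshold. The median log2 difference of members was 0.00 in IFE, 0.07 in ORS and 0.06 in HFSC, beside -0.03, -0.03 and 0.01 over all genes.

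With 2 libraries a group the intervals bound the main sheddases and their inhibitor and leave the low genes wide. The 95% interval of the knockout to control fold of Adam10 was 0.823 to 1.64 for IFE, 0.631 to 1.26 for ORS and 0.766 to 1.38 for HFSC. For Adam17 it was 0.604 to 1.42, 0.598 to 1.41 and 0.569 to 1.20, and for Timp3 0.837 to 1.96, 0.703 to 1.65 and 0.931 to 1.83. Intervals of this width do not show that levels were alike.

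Mmp11 (ENSMUSG00000000901.17, chr10:75923222-75932502, minus) had the largest fitted knockout difference. It had 0 reads in both IFE controls and 15.5 and 6.23 CPM in IFE knockouts. The groups did not overlap, and the knockout mean of 10.9 ± 6.58 CPM (SD, n = 2) was at least 40.6-fold higher (limma adjusted p = 0.212). In ORS it was at 10.7 and 28.5 CPM in controls and 30.2 and 33.0 in knockouts, and in HFSC at 11.5 and 10.5 in controls and 3.80 and 11.5 in knockouts, so the groups overlapped in HFSC, and the higher knockout values in ORS were not called. The difference of its knockout effects was -3.55 ± 1.18 for ORS minus IFE (adjusted p = 0.999) and -5.06 ± 1.07 for HFSC minus IFE (adjusted p = 0.222). Without IFE knockout E359 the latter passed at limma adjusted p = 0.0494, but the IFE knockout arm was then 1 library, E358 with the higher value, assumed to vary like the other groups. MMP11 is best known from stromal cells, and fibroblast markers summed to 177 and 198 CPM in IFE controls and 234 and 299 in IFE knockouts, mostly Dcn, whose part was not tested.

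Adamts17 in IFE was at 8.06 and 23.6 CPM in controls and 0 and 4.47 in knockouts, without overlap (log2 difference -3.19 ± 0.91, limma adjusted p = 0.492). Without IFE knockout E359, the library at 4.47 CPM, the difference was -4.84 and passed at limma adjusted p = 0.0238, with 1 library left in that arm (E358, at 0 reads) that is assumed to vary like the other groups. Adamts4, an aggrecanase, was at 2.43 and 1.87 CPM in IFE controls and had 0 reads in both knockouts, at least 8.99-fold lower (adjusted p = 0.51). Adamts4 passed the filter on low reads of the IFE and ORS fit only through the IFE controls. It had to differ, so its low unadjusted p is no support. Mmp2 in HFSC was at 39.7 and 20.3 CPM in controls and 77.0 and 80.3 in the libraries labelled knockout, again without overlap (log2 difference 1.45 ± 0.35, adjusted p = 0.413). These 4 genes were the ones with an unadjusted p under 0.01 in a knockout comparison. Adam8 in IFE, at 50.1 and 27.9 CPM in controls against 11.3 and 11.3 in knockouts, did not overlap either and had a limma adjusted p of 0.787.

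Under the unadjusted threshold the remaining genes were Adamts7 and Adam19 in IFE, Adamts2 and Rhbdf1 in ORS, and Adamts1 and Adamts3 in HFSC. In the IFE and ORS fit Adamts7 passed the filter on low reads only with the IFE knockouts, and Adamts2 only with the ORS knockouts. Their places here are therefore no support. Rhbdf1 was at 30.3 and 37.9 CPM in ORS controls and 6.36 and 25.1 in ORS knockouts (log2 difference -1.38 ± 0.60, limma adjusted p = 1). Differences between the compartments in the knockout effect were called for 0 members. ORS minus IFE gave 0% of genes called and 3 members under the unadjusted threshold (4.78% of genes), HFSC minus IFE 0% and 5 members (7.28%), and HFSC minus ORS 0% and 3 members (4.47%). Limma-voom called 0 members in these 3 tests and had 2, 4 and 2 under the unadjusted threshold.

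**Figure D5:**
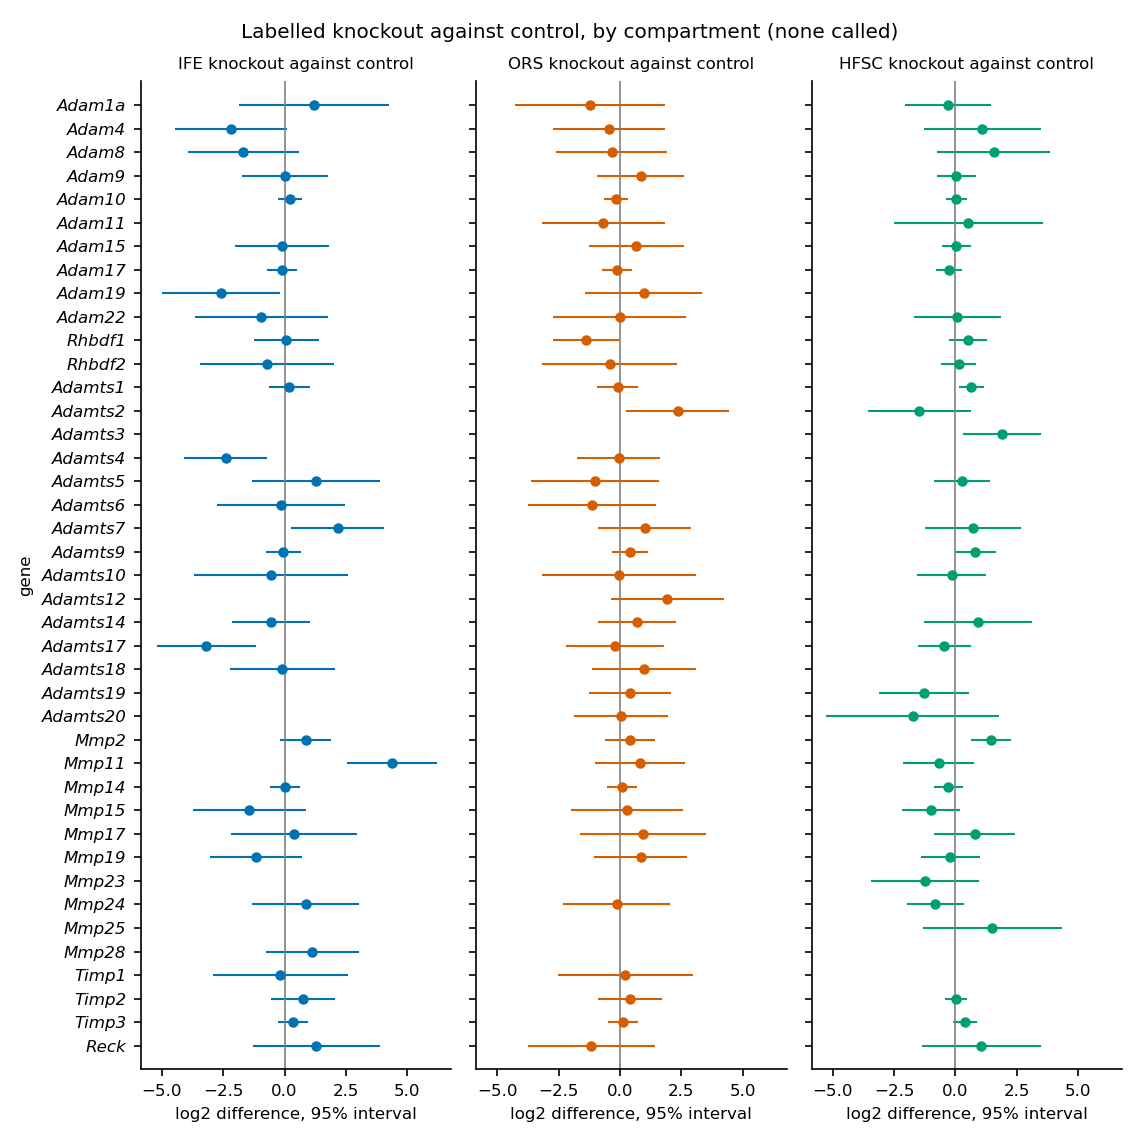
Log2 difference of knockout against control with its 95% interval for members tested in IFE (left), ORS (middle) and HFSC (right), leaving out genes with 0 reads in both groups. No gene was called, and Mmp11 in IFE lies farthest from 0.

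Lists of proteases and inhibitors next to the set are described by counts and carry no test. In the plasminogen system, which activates several pro-MMPs, 2 of 6 tested genes were higher and 2 lower in ORS than in IFE, beside 8.53% and 7.25% of all genes. In HFSC against ORS 3 of 6 were higher and 1 lower (14.3% and 14.4% of all genes), and in HFSC against IFE 1 was higher and 1 lower (19.9% and 16.1%). Plat, tissue plasminogen activator, rose from at most 2.64 CPM in IFE to 7.08 to 40.1 in ORS and 56.2 to 99.5 in HFSC, with HFSC above IFE by 5.97 on the log2 scale (limma adjusted p = 3.08e-05). Serpinb2, an inhibitor of plasminogen activators, was at 45.3 to 153 CPM in IFE, 0.0769 to 1.06 CPM in ORS and 41.3 to 111 in HFSC (ORS against IFE log2 difference -6.50, adjusted p = 7.01e-05). In the IFE and ORS fit Serpinb2 passed the filter on low reads only through IFE, so it had to differ, and that call is no support. Plg had 0 reads throughout.

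Among the 14 other metalloproteases and ADAMTS-like genes, 5 of 8 tested were higher in ORS than in IFE and none lower, and in HFSC against IFE 7 of 11 were higher and 2 lower, beside the same shares of all genes. Adamtsl4, an ADAMTS-like protein of microfibrils without protease activity, was at 209 to 321 CPM in HFSC, 2.31 to 11.1 in ORS and at most 0.893 in IFE (HFSC against IFE log2 difference 8.48, limma adjusted p = 4.14e-07). Adamtsl1 ran the other way, at 46.5 to 91.6 CPM in ORS, 9.74 to 59.3 in IFE and at most 0.123 in HFSC. None of the 5 lists of ligands, partners, related proteases, plasminogen genes and substrates held a gene called in a knockout comparison by limma.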

How the data were processed

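RNA-seq of 12 libraries was used, 150 bp paired reads per the labels. Trim Galore, DESeq2 and build mm10 are named, without roles, per the submitters' processing notes. For the aligner, counter, annotation and strand setting, the sources used here give nothing. The authors deposited 1 log2 value per gene and library on a scale of reads per 1000000. Whole reads were recovered from the low values (at least 99.996% of values lay within 0.2 reads of a whole number), and they were used for detection, filters and limma-voom. The main tests ran limma 3.58.1 in R 4.3.3 on log2(CPM + 0.5), with CPM as in the text above and TMM factors trimmed at 30% and 5%. Reads in genes were 26.9% to 54.6% of the library totals. Genes needed, in at least 2 libraries of the fit, the level that 10 reads make at the median number of reads in genes. They also needed at least 15 reads in all. IFE and ORS were fitted together (8 libraries), HFSC knockouts alone (4), and HFSC against the others with all 12. Adjusted p-values are Benjamini-Hochberg over all genes tested, 2-sided. Values are given for the TIMPs, iRhoms, Reck, Adam10 and Adam17, for members with a group mean of at least 10 CPM or an adjusted p under 0.05, and for members with an unadjusted p under 0.01 and no overlap in a knockout comparison. Positions and exon lengths are from GENCODE vM21. Members and lists were chosen with earlier results of these data known. Alternatives changed the pseudocount, filter, scaling, samples, block and test, and left out each library. The fits were tested on simulated data.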

Additional observations from a re-analysis of the deposited data

How the results depend on the processing

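Of 49 called differences between compartments in named genes, 756 of 877 alternative values kept direction and side of the threshold, 121 kept only the direction and 0 reversed. Adam10 in HFSC knockouts, not called at 0.04 on the log2 scale, was -0.015 on the deposited scale and -0.068 to 0.14 with 1 library left out (the former without HFSC control L136). Members called in ORS against IFE were 14, and 22 on the deposited scale (10 to 16 with 1 library left out), and the share called higher went from 71.4% to 86.4%, while over all genes it went from 54% to 93.4%. For HFSC against ORS 17 became 20 on the deposited scale, with 25% instead of 52.9% called higher (all genes 14.1% instead of 49.9%), and 7 with control libraries only, all 7 shared with the 17 (12 to 17 with 1 library left out). The median of all genes was then -0.91 on the deposited scale. For HFSC against IFE the 18 calls ranged from 12 to 18 over other settings and from 13 to 20 with 1 library left out. Calls in IFE knockouts ranged from 0 to 1 with 1 library left out (Adamts17 without IFE knockout E359), and those of the HFSC minus IFE knockout effect from 0 to 2, again without that library. The cause was not tested. Over all genes, calls in IFE knockouts went from 0 to 24 with all 12 libraries in 1 fit and 53 without IFE knockout E359, in HFSC knockouts from 5 to between 0 and 7 (1 to 45 with 1 library left out), and in the HFSC minus IFE effect from 0 to at most 92. In ORS against IFE 2280 genes became 7113 on the deposited scale (1209 to 2682 with 1 library left out), in HFSC against ORS 4381 became 7435 on that scale and 2661 in controls only, and in HFSC against IFE 5499 became 3662 in controls only.

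For libraries with the same number in IFE and ORS, deviations correlated at 0.049 for E341 and 0.056 for E358 and E359. These values lay under the 0.1 set for treating them as pairs. With 2 libraries a group, deviations from the group mean mirror each other, so E358 and E359 give the same value by construction. The E341 value depends equally on the other control of each compartment. The correlations of the replicate block lay above 0.1, at 0.115 for IFE with ORS and 0.102 with HFSC added. Whether such libraries deviated together is therefore not decided. The labels do not say whether libraries with the same number share an animal, and their sex calls matched. With the replicate block, members called were 0 in IFE and ORS knockouts, 16 in ORS against IFE, 17 in HFSC against ORS, 18 in HFSC against IFE and 0 in each difference of knockout effects. At 2 libraries a group (4, 2 and 6 residual degrees of freedom) and a 3-read floor of up to 0.268 CPM, knockout differences of genes at a few CPM had wide intervals.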

Other observations

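Among proteins that the sheddases and MMPs cut or bind, 4 of 14 tested were higher and 6 lower in ORS than in IFE, where 15.8% of all genes were called (limma). In HFSC against ORS 7 were higher and 3 lower (28.7% of all genes called), and in HFSC against IFE 4 were higher and 4 lower (36.1%), counts that carry no test. Sdc1, syndecan 1, a heparan sulphate proteoglycan whose outer part is shed, was at 2053.1 to 2381 CPM in HFSC against 224 to 291 in IFE and 129.98 to 248 in ORS (log2 differences 3.07 and 3.61, adjusted p = 4.46e-08 and 2.03e-08). Notch1, which ADAM10 cuts on activation, was lower in ORS (185 to 208 CPM) than in IFE (298 to 412, log2 difference -0.81, adjusted p = 0.00699). Cd44, which ADAM10 and MMP14 shed, was lower in HFSC (430.1 to 650.3 CPM) than in ORS (881 to 1174, log2 difference -0.89, adjusted p = 0.00122). Cdh1, E-cadherin, was at 357 to 654 CPM and was not called.

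Ece1 and Bmp1, further metalloproteases, went opposite ways between ORS and HFSC. Ece1, endothelin converting enzyme, was at 112 to 134 CPM in IFE, 208 to 296 CPM in ORS and 297 to 642 in HFSC, and each step was called by limma (log2 differences 0.98 and 0.97, adjusted p = 0.00417 and 0.00161). Bmp1, which removes the carboxyl propeptide of procollagen, was at 45.6 to 97.5 CPM in IFE, 107 to 114 CPM in ORS and 17.5 to 40.1 in HFSC, lowest in HFSC (log2 difference to ORS -1.96, adjusted p = 0.000326).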
